A study of Homo sapiens with 3 samples.

Results

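LNCaP cells kept in PVAT-CM were compared with LNCaP cells kept in control-CM, with 1 RNA sequencing library for each medium. LNCaP is an established prostate cancer cell line that grows in response to androgens, and CM is conditioned medium. All cells had a first 24 h in complete medium, followed by 72 h with 50% CM and 2% fetal bovine serum. The labels mark PVAT-CM as normal and PPAT-CM, the medium of the only other library, as tumor. PPAT is periprostatic adipose tissue in the title of the study, PVAT is not expanded in the labels, and the labels do not say how each CM was made. The comparison uses 2 of the 3 libraries and 12256 of the 58884 genes in the count table, namely those whose raw counts averaged 50 or more across the 3 libraries. Every difference is between 1 culture and 1 other culture, so none has a replicate check and none has a p-value.

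Library totals lay between 14174241 and 16965584 counts, and a count of 0, which allows up to 3 counts, allowed 0.198 CPM (counts relative to library size) in control-CM and 0.210 in PVAT-CM after scaling by TMM (trimmed mean of M-values). Read counts of single genes are given below in the order control-CM, PVAT-CM, PPAT-CM. All 15 LNCaP markers were kept and none reached 1.5-fold in PVAT-CM. KLK3, which encodes prostate-specific antigen, had 10286, 9982 and 4577 reads. Of 18 adipocyte markers 2 were kept, CFD and PPARG, and the defining markers ADIPOQ, LEP and FABP4 were at 0 counts in all 3 libraries. The summed level of the adipocyte list was 23.2 scaled CPM in control-CM and 26.7 in PVAT-CM. No leukocyte marker of 18 was kept, and PTPRC was at 0 in all 3 libraries. In bulk RNA fewer cells of a type and less RNA per cell cannot be told apart.

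The integrated stress response is a pathway in which kinases that sense amino acid shortage, unfolded protein or other stress slow general translation while the transcription factor ATF4 is made, and ATF4 drives genes for amino acid uptake and synthesis. Interferons act through STAT proteins on promoters that carry an interferon-stimulated response element, and the genes so driven encode antiviral proteins and parts of class I antigen presentation. Mitochondria keep a small genome of their own, which encodes core respiratory chain subunits together with the rRNA and tRNA needed to translate them.

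The stretches below are from RefSeq promoter windows (GRCh38.p14), each 300 bases long from 250 before to 50 after a transcript start, and they are shown because members of the interferon, stress and chaperone lists were among the higher genes. They are written 5′ to 3′ on the strand of the gene, and capitals mark the searched motif. For the interferon motif, GAAA, any 2 bases and GAAA, the stretches of IFI6 (chr1:27672324-27672363, minus strand), IFIT3 (chr10:89327860-89327899, plus strand), OAS3 (chr12:112938316-112938355, plus strand), B2M (chr15:44711364-44711403, plus strand), TAP1 (chr6:32853808-32853847, minus strand) and MX1 (chr21:41431839-41431878, plus strand) are given. For the ATF4 motif (TGATG, any base, AA), the stretch of SLC1A5 (chr19:46784889-46784926, minus strand) is given. For the ER stress motif, CCAAT and CCACG separated by 9 bases, those of PDIA6 (chr2:10812838-10812886, minus strand) and XBP1 (chr22:28800588-28800636, minus strand) are given. In IFIT3, TAP1 and MX1 the motif lies on the other strand and is read as its reverse complement.
IFI6: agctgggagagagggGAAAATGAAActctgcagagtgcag
IFIT3: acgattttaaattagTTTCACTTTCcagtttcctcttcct
OAS3: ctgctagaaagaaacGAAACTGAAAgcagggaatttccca
B2M: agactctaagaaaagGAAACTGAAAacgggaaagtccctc
TAP1: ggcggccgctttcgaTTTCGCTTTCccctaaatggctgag
MX1: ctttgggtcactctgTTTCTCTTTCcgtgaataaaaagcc
SLC1A5: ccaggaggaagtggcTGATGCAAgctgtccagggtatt
PDIA6: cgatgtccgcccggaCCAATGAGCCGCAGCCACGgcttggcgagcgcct
XBP1: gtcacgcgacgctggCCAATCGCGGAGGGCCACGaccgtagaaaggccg
Searched on both strands, the interferon motif was in 1255 of 35116 windows (3.57%) and in the windows of 343 of 9511 kept genes (3.61%). It was in 18 of the 28 kept interferon list members with a window and in 10 of 15 class I members. Of those at least 1.5-fold higher, 9 of 11 interferon list members and 4 of 7 class I members held it. The ATF4 motif was in 3.62% of all windows and in the windows of 2.60% of kept genes. It was in 5 of 27 members of the ATF4 list, in 5 of 20 amino acid transporter genes and in 7 of 16 genes for tRNA synthetases. Of the 10 ATF4 list members at least 1.5-fold higher 2 held it. The ER stress motif was in 27 of all windows (0.0769%) and in the windows of 15 kept genes (0.158%). It was in 7 of 29 members of the ER chaperone list, among them 1 of the 6 that were at least 1.5-fold higher. It was in 1 of 23 regulators of the unfolded protein response, XBP1, and in 0 of 40 genes of ER translocation. A sterol motif, GTG, any 2 bases and GTG, was in 14.9% of all windows and in the windows of 18.5% of kept genes. It was in 5 of 22 cholesterol genes and 5 of 20 fatty acid synthesis genes. The interferon motif can share bases with neighbouring copies of itself, as in B2M and TAP1. A match is a description of these letters and does not show that a factor binds there.

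Across all kept genes the median log2 ratio of PVAT-CM over control-CM was 0.02, with quartiles of -0.17 and 0.20, and 93.4% of genes lay within 1.5-fold. A list of 19 reference genes in common use, all kept, had a median of 0.13. At a threshold of 1.5-fold, 386 genes (3.15%) lay on the higher side in PVAT-CM and 428 (3.49%) on the lower side. At 2-fold there were 57 higher genes (0.465%) and 54 lower genes (0.441%). Scaled by library totals in place of TMM, which moves the median of all genes by 0.13 on the log2 scale, 818 genes were higher and 219 lower at 1.5-fold. Calls were concentrated among low counts. Among the 3604 genes with a mean under 200 counts in the compared libraries, 7.10% were higher and 8.35% lower, against 1.84% and 1.36% of the 2656 genes with a mean of at least 1000. The filter also kept 258 genes through their PPAT-CM count, with a mean under 50 in the compared libraries, and these held 26 of the 57 genes at least 2-fold higher. The calls include CPB1 (0 and 1 reads) and CD74 (1 and 0 reads), which were at or under the floor of 3 counts in both compared libraries and therefore have no fold.

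**Figure D1:**
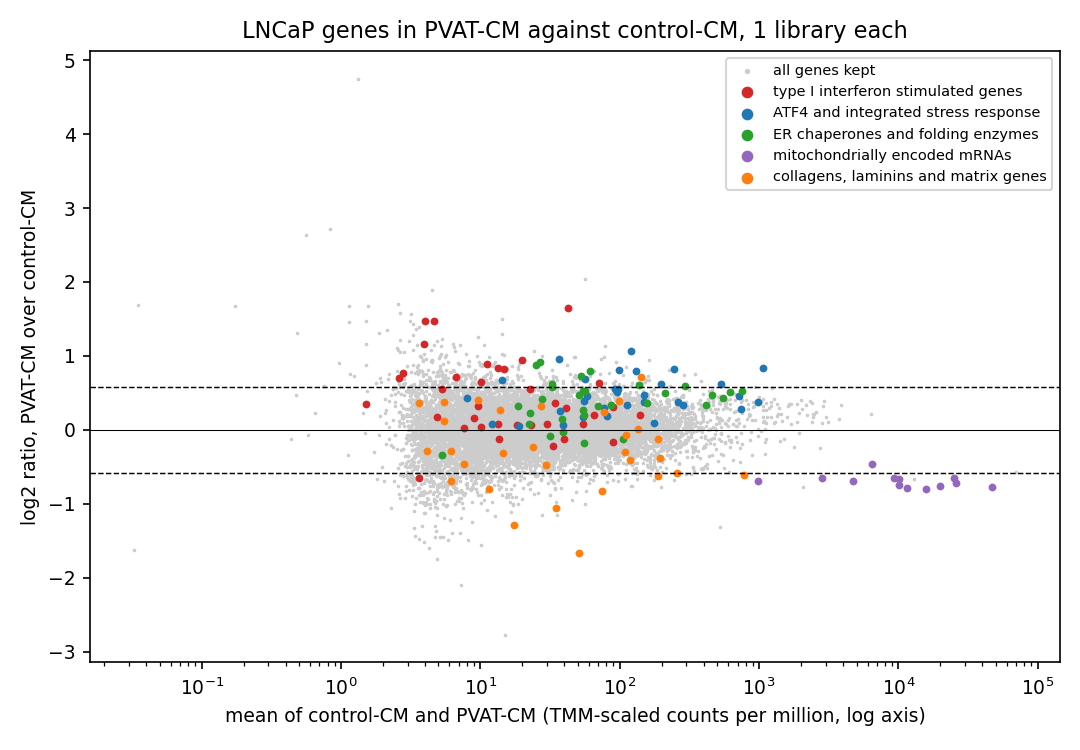
Each point is 1 kept gene, with its mean level in the control-CM and PVAT-CM libraries on the x axis (TMM-scaled CPM, log axis) and its log2 ratio of PVAT-CM over control-CM on the y axis. Dashed lines mark 1.5-fold. The 13 mitochondrially encoded mRNAs lie at the right, all below 0, and the ratios spread more widely at low levels.

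Genes of the ATF4 list lay above 0 as a group in PVAT-CM. All 32 kept members of 36 had a ratio above 1. The counting interval excluded 1 for 29 of them, beside 44.5% of all kept genes on either side. At 1.5-fold 10 members (16 with library totals) were higher and 0 lower, beside 3.15% and 3.49% of all kept genes. The list median was 0.44 on the log2 scale, beside 0.02 over all genes, and the PPAT-CM median over the same control library was 0.10. The 4 listed genes not kept were ALDH1L2, INHBE, FGF21 and CLDN1.

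SQSTM1, which encodes the autophagy receptor p62, had 1182, 2321 and 6938 reads. It was 2.09-fold higher in PVAT-CM, with a 95% counting interval of 1.95 to 2.24 that covers counting error only. GDF15, a secreted stress cytokine of the TGF-beta family, had 11665, 19663 and 11060 reads, 1.79-fold higher in PVAT-CM (1.75 to 1.83). Its level in PVAT-CM stood above both other libraries, whereas that of SQSTM1 lay between them. PCK2, the mitochondrial enzyme that makes phosphoenolpyruvate, had 2702, 4500 and 3923 reads, 1.77-fold higher (1.69 to 1.86). TRIB3, a pseudokinase that restrains ATF4 signalling, had 1080, 1787 and 1500 reads, 1.76-fold higher (1.63 to 1.90). CEBPB, a transcription factor that pairs with ATF4, had 1458, 2368 and 2554 reads, 1.73-fold higher (1.62 to 1.85). These 5 genes had over 1000 counts in each library, so their counting intervals are narrow.

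Amino acid transporter genes, which include ATF4 targets, had 23 of 30 members kept and a median of 0.27. At 1.5-fold 4 were higher (7 with library totals) and 0 lower, beside 3.15% and 3.49% of all kept genes. SLC7A11, the cystine-glutamate exchanger, had 744, 1536 and 1330 reads, 2.20-fold higher in PVAT-CM (2.01 to 2.40). SLC1A5, a neutral amino acid transporter that carries glutamine, had 987, 1749 and 1093 reads, 1.89-fold higher (1.74 to 2.04). SLC7A1, a cationic amino acid transporter, had 1626, 2296 and 1685 reads, 1.5-fold higher (1.41 to 1.60). For SLC1A5 and SLC7A1 the PPAT-CM count was close to that of control-CM before scaling. SLC7A5, the large neutral amino acid transporter, was 1.57-fold higher (1.25 to 1.98) on 129 and 190 counts. All 20 genes for cytosolic tRNA synthetases were kept, with a median of 0.26, and 1 reached 1.5-fold (3 with library totals). That gene was SARS1, for seryl-tRNA synthetase, with 1465, 2129 and 2958 counts and a ratio of 1.55 (1.45 to 1.65).

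**Figure D2:**
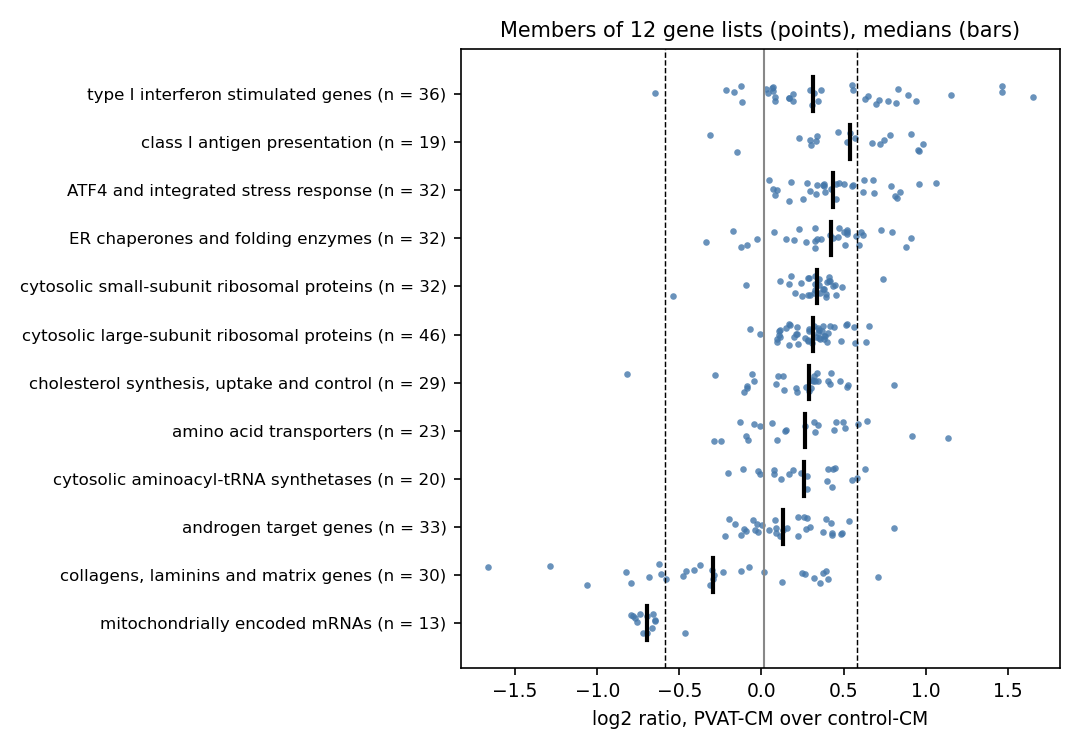
Points are the log2 ratios of PVAT-CM over control-CM of the kept members of 12 gene lists, bars are list medians, dashed lines mark 1.5-fold, and the grey line is the median of all kept genes. Vertical scatter within a row has no meaning. The ATF4 members all lie above 0, and the mitochondrial mRNAs all lie below 0.

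ER chaperones and folding enzymes, which fold and cross-link secreted and membrane proteins, had 32 of 34 members kept, 7 at least 1.5-fold higher (15 with library totals), 0 lower and a median of 0.43, beside 3.15% higher over all kept genes. Their PPAT-CM median was 0.14. ERP29, an ER protein named here because it was among the highest ratios of abundant genes and not as a list member, had 1681, 3032 and 3767 reads, 1.92-fold higher (1.81 to 2.04). PDIA6, a protein disulfide isomerase whose promoter stretch is printed above, had 268, 465 and 804 reads, 1.85-fold higher (1.58 to 2.15). HYOU1, an ER chaperone of the HSP70 family, had 674, 1102 and 1301 reads, 1.74-fold higher (1.58 to 1.92). MANF, a secreted ER stress protein, was 1.66-fold higher (1.49 to 1.84) on 601 and 935 counts. All of these were also higher in PPAT-CM, a comparison that shares the control library.

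Sensors and regulators of the unfolded protein response had 25 of 27 members kept and a median of 0.26. At 1.5-fold 3 were higher and 0 lower, beside 3.15% and 3.49% of all kept genes. The 3 were TRIB3, XBP1 and ERN1. XBP1, the transcription factor activated by splicing in this response, had 1823, 2837 and 8393 reads, 1.66-fold higher (1.56 to 1.76). ERN1, which encodes the sensor IRE1 that splices it, had 458, 678 and 716 reads, 1.57-fold higher (1.40 to 1.78). All 46 genes of ER translocation and early secretory transport were kept, with a median of 0.26. Beside the same shares of all kept genes, 5 were at least 1.5-fold higher and 0 lower. SEC11C, a signal peptidase subunit, had 2624, 4347 and 7763 reads, 1.76-fold higher (1.68 to 1.85). DDOST, a subunit of the oligosaccharyl transferase, had 695, 1087 and 1340 reads, 1.66-fold higher (1.51 to 1.83). The other 3 were TMED2, STT3A and SSR2, of which SSR2 was named after its value was seen.

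Of 50 type I interferon stimulated genes 36 were kept, with a median of 0.32 and a PPAT-CM median of 0.58. At 1.5-fold 13 were higher and 1 lower, beside 3.15% and 3.49% of all kept genes. The counting interval lay above 1 for 20 of the 36 and below 1 for 3. Over all kept genes 44.5% of intervals excluded 1 on either side. Of the 36, 18 had a mean under 200 counts in the compared libraries. In that range calls were most frequent over all genes, with 7.10% higher and 8.35% lower. Of the 18 with a mean of at least 200 counts in the compared libraries 4 were higher. With the filter over the 3 libraries raised to 200 counts 5 of 20 were higher, and with no filter 21. UBE2L6 and PLSCR1, 2 of the 13, were kept through their PPAT-CM counts. IFI6, an interferon-induced mitochondrial protein gene on chromosome 1 (27666061 to 27672218, minus strand, GRCh38), had 312, 922 and 369 reads. It was 3.14-fold higher in PVAT-CM (2.76 to 3.59), while the PPAT-CM library was at the control level after scaling, with a ratio of 0.976. The RNA-binding antiviral gene IFIT3 had 37, 97 and 118 reads, 2.79-fold higher (1.89 to 4.19). OAS3, an antiviral enzyme that makes oligoadenylates, had 32, 84 and 117 reads, 2.79-fold higher (1.84 to 4.34). LGALS3BP, a secreted glycoprotein, had 208, 376 and 1617 reads, 1.92-fold higher (1.62 to 2.29). The 1 lower member was MX1, an antiviral GTPase, with 67, 40 and 84 counts and a ratio 1.57-fold lower (1.05 to 2.39). MX1 was named after its value was seen, and it too carries the interferon motif. Interferon sensing and signalling genes, 19 kept of 29, had a median of 0.01, with 1 higher and 0 lower. That gene was the interferon regulatory factor IRF1, with 84, 133 and 320 reads and a ratio of 1.68 (1.27 to 2.24).

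Class I antigen presentation genes had 19 of 22 members kept and a median of 0.54, beside a PPAT-CM median of 1.27. At 1.5-fold 8 were higher and 0 lower, beside 3.15% and 3.49% of all kept genes. Of the 19, 8 had a mean under 200 counts in the compared libraries, and 4 of the other 11 were higher. B2M, the invariant light chain of class I molecules, had 3935, 6218 and 21590 reads, 1.68-fold higher in PVAT-CM (1.62 to 1.75). TAP1, a subunit of the peptide transporter, had 46, 84 and 287 reads, 1.94-fold higher (1.34 to 2.85). ERAP1, the peptidase that trims peptides in the ER, had 102, 181 and 385 reads, 1.89-fold higher (1.47 to 2.43). The class I heavy chain gene HLA-B had 756, 1385 and 5298 reads, 1.95-fold higher (1.78 to 2.13), a value that is uncertain because the aligner may divide reads between similar HLA genes. In each of these genes the PVAT-CM count lay between control-CM and PPAT-CM. Among APOL and guanylate binding protein genes, many of which respond to interferon, 6 of 13 were kept and 4 of them were at least 1.5-fold higher. Of these 6, 4 (APOL1, APOL3, GBP2 and GBP3) had a mean under 50 counts in the compared libraries and were kept through PPAT-CM. The number of higher members therefore depends on the PPAT-CM library. Of all 258 genes kept that way 54 were higher and 32 lower, beside 3.15% and 3.49% of all kept genes. The list median was 1.09, but 0.43 with a mean of at least 10 counts and 0.12 with no filter. APOL6 had 29, 102 and 850 reads, 3.74-fold higher (2.46 to 5.86). APOL3 had 11, 34 and 249 reads, 3.29-fold higher (1.63 to 7.19), and APOL1 12, 32 and 394 reads, 2.84-fold higher (1.42 to 6.05). The interval of the fourth, GBP3, on 22 and 34 reads, included 1 (0.934 to 2.95).

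Cytosolic ribosomal protein genes were higher by a small amount that was alike over most of them. All 46 large-subunit genes were kept, with a median of 0.32, and the counting interval lay above 1 for 44 of them, although 2 reached 1.5-fold (7 with library totals). All 32 small-subunit genes were kept, with a median of 0.34, 30 intervals above 1 and 1 below 1. The share of all kept genes at least 1.5-fold higher was 3.15%. Over all kept genes 44.5% of intervals excluded 1 on either side. RPS29, a small-subunit gene, was the 1 that reached 1.5-fold on the higher side (3 did with library totals), with 3284, 5158 and 6971 counts and a ratio of 1.67 (1.60 to 1.75). RPL30 and RPL10A were the 2 large-subunit genes, at 1.57-fold (1.48 to 1.67) and 1.55-fold (1.5 to 1.60). Ribosomal protein genes have many processed copies in the genome, so their counts are uncertain. Among protein-coding genes the median was lower at greater exon length, from 0.08 in the shortest of 5 length classes with nearly equal numbers of genes to -0.01 in the longest. Ribosomal protein genes are short, and the part of length in their shift was not tested.

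Cholesterol genes had 29 of 32 members kept, with a median of 0.29, and 1 each was past 1.5-fold higher (4 with library totals) and lower. The lower gene was the sterol exporter ABCG1, with 130, 69 and 168 counts, 1.77-fold lower (1.31 to 2.41). SREBF1, the regulator of fatty acid synthesis genes, had 5954, 3714 and 4383 reads, 1.51-fold lower (1.45 to 1.57). Androgen target genes had 33 of 39 members kept and a median of 0.13, with 1 member past 1.5-fold (4 with library totals). For FOLH1, a prostate surface peptidase and LNCaP marker, the counts were 15679, 14534 and 17615, and the ratio was 1.01-fold lower, with an interval (0.991 to 1.04) that includes 1.

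Several single genes differed by more than the medians of these lists. ADRA2A, the alpha-2A adrenoceptor gene (chromosome 10, 111077163 to 111080907, plus strand, GRCh38), had 332, 1282 and 4110 reads. It was 4.11-fold higher in PVAT-CM (3.64 to 4.65). Of 19 kept adrenoceptor and signalling genes 2 were at least 1.5-fold higher and 0 were lower, beside 3.15% and 3.49% of all kept genes. The list median was -0.10 with TMM and 0.03 with library totals. ARG2, the mitochondrial arginase, had 125, 288 and 250 reads, 2.45-fold higher (1.98 to 3.05). IGFBP2, an insulin-like growth factor binding protein, had 448, 776 and 517 reads, 1.84-fold higher (1.64 to 2.07). The 28 kept immediate early genes had a median of 0.14, or 0.08 with the filter on the compared libraries alone. Beside the same shares of all kept genes, 5 were at least 1.5-fold higher and 0 lower. The 5 were ATF3 and the Kruppel-like factor genes KLF4, KLF5, KLF6 and KLF10. KLF5 was kept through its PPAT-CM count. It had 24, 53 and 90 reads, and KLF6 78, 150 and 160.

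**Figure D3:**
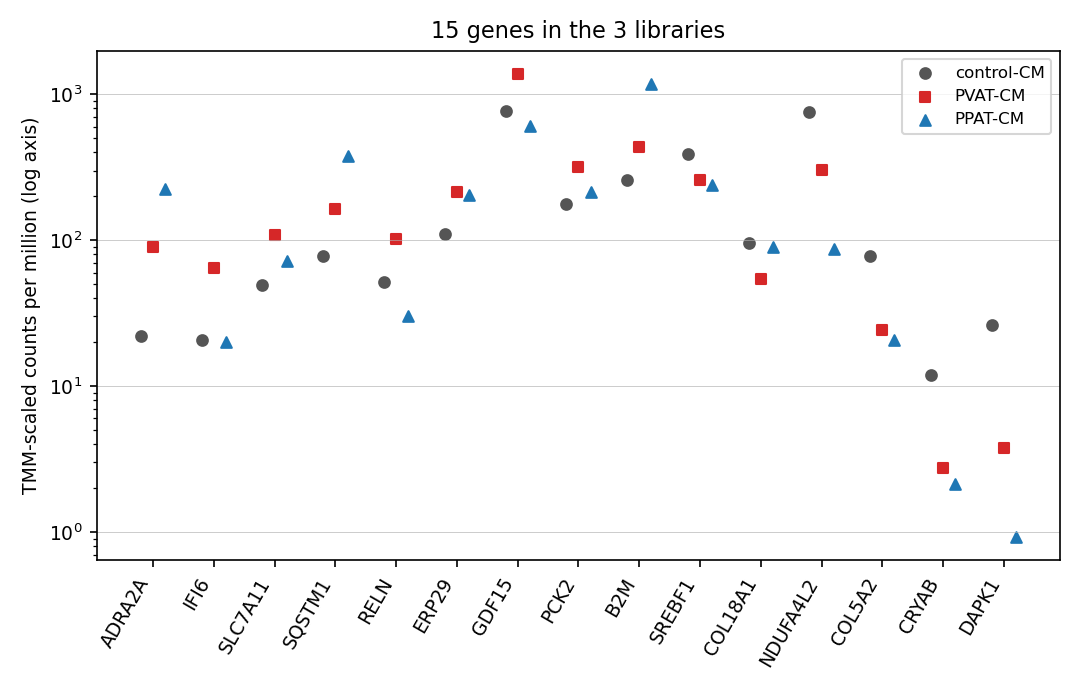
The level of 15 genes in the 3 libraries, in TMM-scaled CPM on a log axis, with 1 library for each medium and therefore no error bars. ADRA2A and SQSTM1 step up from control-CM to PVAT-CM to PPAT-CM, and DAPK1 and NDUFA4L2 step down. IFI6, SLC7A11, RELN, GDF15 and PCK2 are highest in PVAT-CM. ERP29 is about equally high in PVAT-CM and PPAT-CM.

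On the lower side, DAPK1, which encodes a calcium-regulated kinase that promotes cell death (chromosome 9, 87497228 to 87708633, plus strand, GRCh38), had 395, 54 and 17 reads. It was 6.88-fold lower in PVAT-CM (5.16 to 9.32). The other 6 kept death-associated kinase genes were within 1.5-fold, and the list median was 0.05. CRYAB, a small heat shock protein gene, had 180, 39 and 39 reads, 4.34-fold lower (3.05 to 6.30). HSPB8, a small heat shock protein that works in chaperone-assisted autophagy, had 187, 74 and 80 reads, 2.38-fold lower (1.81 to 3.15). Cytosolic heat shock genes as a list, with 33 kept, had a median of 0.03. Beside 3.15% higher and 3.49% lower over all kept genes, 0 were higher and 3 lower. The third of these was HSPA6, with 100, 61 and 4 counts. AOC1, which breaks down histamine and putrescine, had 230, 73 and 125 reads, 2.96-fold lower (2.27 to 3.91).

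Matrix genes had 30 of 61 members kept, with a median of -0.30 and a PPAT-CM median of -0.20. Of the 30, 8 (5 with library totals and 14 with no filter) were at least 1.5-fold lower and 1 was higher. Over all kept genes 3.49% were lower and 3.15% higher. COL5A2, a fibrillar collagen chain, had 1173, 348 and 379 reads, 3.17-fold lower (2.81 to 3.58). PLOD2, which hydroxylates collagen lysines for cross-linking, had 374, 144 and 145 reads, 2.44-fold lower (2.01 to 2.98). COL1A1, a chain of type I collagen, had 718, 323 and 478 reads, 2.09-fold lower (1.83 to 2.39). For COL18A1, a basement membrane collagen, the counts were 1445, 767 and 1643, and it was 1.77-fold lower (1.62 to 1.94). COL5A2 and PLOD2 were low in PVAT-CM and in PPAT-CM, while COL18A1 was low in PVAT-CM and near the control level in PPAT-CM. The 1 higher member was FN1, for fibronectin, with 1628, 2501 and 9549 counts and a ratio of 1.63 (1.53 to 1.74). COL1A1 is also on the fibroblast marker list, whose summed level was 53.1 scaled CPM in control-CM and 27.2 in PVAT-CM, most of it COL1A1. The fibroblast markers DCN, PDGFRA, THY1 and COL1A2 were at 0 counts in all 3 libraries.

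Hypoxia response genes had 23 of 30 members kept and a median of -0.15. At 1.5-fold 0 were higher and 4 lower, beside 3.15% and 3.49% of all kept genes. NDUFA4L2, a hypoxia-induced mitochondrial protein gene (chromosome 12, 57234903 to 57240715, minus strand, GRCh38), had 11421, 4304 and 1604 reads, 2.49-fold lower (2.41 to 2.58). The other 3 were PLOD2, ADM and CA12. ADM, for the peptide adrenomedullin, had 109, 60 and 67 reads, 1.71-fold lower (1.23 to 2.38). CA12, a carbonic anhydrase, had 432, 248 and 307 reads, 1.64-fold lower (1.40 to 1.92). PLOD2 is in both the matrix and the hypoxia list. BNIP3, a mitophagy receptor and hypoxia target, had 6210, 3961 and 4843 reads, 1.47-fold lower (1.42 to 1.53).

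The mitochondrial genome accounted for 30.8% of all reads with control-CM, against 21.1% with PVAT-CM and 15.5% with PPAT-CM. All 13 mRNAs were below the control level in PVAT-CM, 12 of them by at least 1.5-fold (6 with library totals), beside 3.49% of all kept genes. Their median was -0.70, with a range of -0.79 to -0.46. Their PPAT-CM median was -1.29. MT-CO1, a catalytic subunit of cytochrome c oxidase, had 903454, 497968 and 447389 reads, 1.71-fold lower (1.70 to 1.71). MT-ND3, a complex I subunit, was the 1 mRNA that did not reach 1.5-fold, with 113167, 77175 and 45260 counts and a ratio 1.38-fold lower (1.37 to 1.39). MT-ND6, whose gene lies on the opposite strand to the other 12 mRNAs, was 1.57-fold lower (1.55 to 1.59). The mitochondrial rRNA MT-RNR2 was 1.48-fold lower (1.48 to 1.49) and MT-RNR1 1.58-fold lower (1.57 to 1.59). Of 15 kept mitochondrial tRNA genes 11 were at least 1.5-fold lower, with a median of -0.79. Nuclear genes for complex I and for complexes II to V had medians of 0.06 and 0.16, and 0 of 35 and 0 of 40 kept members reached 1.5-fold in either direction. Of 38 kept genes for mitochondrial transcription and RNA handling 1 was lower, FASTKD1, which acts on mitochondrial RNA, at 1.55-fold (1.33 to 1.80). Nuclear copies of mitochondrial genes share reads with the originals, so the values of both are uncertain.

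**Figure D4:**
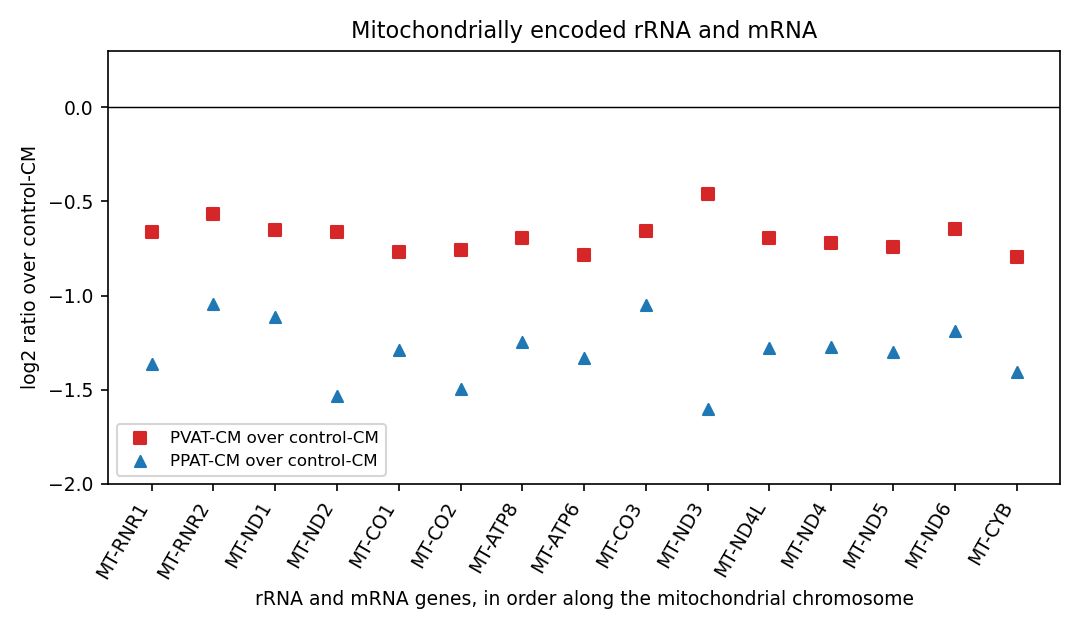
Log2 ratios over control-CM of the mitochondrial rRNA and mRNA genes in their order along the mitochondrial chromosome, for PVAT-CM (squares) and PPAT-CM (triangles), which share 1 control library. All PVAT-CM values lie between -0.79 and -0.46.

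DNA replication genes had 31 kept members and a median of 0.03, with 1 lower and 0 higher, and mitosis genes had 9 of 35 members kept, with none past 1.5-fold. The mitosis median was not stable, at -0.03 as kept, 0.10 with library totals, -0.31 with a mean of at least 10 counts, -0.20 with at least 200 and -0.38 with no filter. The 1 lower replication gene was TK1, for thymidine kinase, with 294, 159 and 281 counts and a ratio 1.74-fold lower (1.43 to 2.12). BCL2 family genes had 18 kept members and a median of 0.15, with 3 higher and 0 lower, beside 3.15% and 3.49% of all kept genes. The 3 were HRK, BBC3 and PMAIP1, which all encode BH3-only proteins that promote apoptosis. HRK had 67, 140 and 165 reads, 2.22-fold higher (1.65 to 3.02). BBC3 had 366, 543 and 327 reads, 1.58-fold higher (1.38 to 1.81). PMAIP1 had 161, 239 and 886 reads, 1.58-fold higher (1.29 to 1.94). Of the 18 kept members 14 lay above 0 and 4 below, the lowest being BNIP3 at -0.56. Summed over the 21 listed genes, the level was 1191 scaled CPM in control-CM and 1108 in PVAT-CM. Caspase and death receptor genes had 28 kept members, 2 of them higher, CASP4 and FAS, and a median of 0.13.

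Stress defence and protein turnover genes had medians a little above that of all genes. The 19 reference genes in common use also lay above it, with a median of 0.13 and 16 members above 0. NRF2 targets and glutathione enzymes, which protect against oxidants, had 28 of 43 members kept and a median of 0.29. Beside 3.15% higher and 3.49% lower over all kept genes, 3 were higher and 0 lower. The 3 were SLC7A11, GCLM and GPX8. GCLM, the modifier subunit of the enzyme that starts glutathione synthesis, had 400, 617 and 860 reads, 1.64-fold higher (1.44 to 1.87). FTH1, the ferritin heavy chain that stores iron, had 5705, 7778 and 26196 reads, a ratio of 1.45 (1.40 to 1.5). All 34 constitutive proteasome genes were kept, with a median of 0.23, and 0 reached 1.5-fold. The counting interval lay above 1 for 27 of them, beside 44.5% of all kept genes with 1 excluded on either side. All 50 lysosomal genes were kept, with a median of 0.19. Of them 2 (4.0%) were higher, near the share of all kept genes, and 0 were lower. Of these 2, 1 had a mean of at least 200 counts in the compared libraries. LAMP1, a membrane glycoprotein of lysosomes, had 601, 908 and 1428 reads, 1.61-fold higher (1.45 to 1.78).

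By gene class, the 344 kept intergenic long noncoding genes had 9.01% lower and 3.20% higher members with TMM. The 406 antisense genes had 7.88% lower and 4.19% higher, and the 10970 protein-coding genes 2.76% lower and 3.05% higher. Genes of any class with a mean under 200 counts had 8.35% lower and 7.10% higher. The part of count level in the class shares was not tested. Antisense values are uncertain, because the strand setting of the counting is not given in the sources used here. Of 13 kept prostate and nuclear long noncoding RNAs 1 was at least 1.5-fold lower, MIR22HG, with 168, 103 and 178 reads and a ratio 1.53-fold lower (1.19 to 1.98).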

How the data were processed

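The authors deposited raw read counts per gene as whole numbers. FastQC, Trimmomatic, HISAT2, featureCounts, edgeR and GRCh38 are named, per the submitters' processing notes. The sources used here give neither their versions nor the strand setting of counting. Without strand, a gene and its antisense or overlapping partner cannot be told apart. Samples were grouped by the treatment label. TMM factors came from edgeR 4.0.16 in R 4.3.3 over the 3 libraries and were 0.917 for control-CM, 1.01 for PVAT-CM and 1.08 for PPAT-CM. Genes with a mean of at least 50 counts were kept. Thresholds and medians used log2 ratios after adding a pseudocount of 0.5 to the scaled values, and printed folds are ratios of scaled counts with exact conditional binomial (Clopper-Pearson) 95% intervals. No molecular identifiers are recorded, so reads may be copies of 1 molecule, and intervals and floors cover counting error only. The ratio and interval steps were tested on simulated data. The quasi-likelihood test of edgeR was not run, since 1 library a medium leaves it no residual spread. Symbols were found for 58472 of 58884 gene identifiers, and 58611 matched GENCODE 29, whose GRCh38 coordinates are printed. Of 1820 listed genes 1816 were matched.

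Named genes were the 20 highest and 20 lowest ratios with a proper symbol, the 15 highest and 15 lowest among genes with a mean of at least 1000 counts, the 4 members of each list with the largest absolute ratio (6 in 12 main lists), all members of lists of 13 or fewer kept genes, and cell type markers. The report prints some of these. The comparison, the 70 gene lists and the genes were chosen with earlier results of these data known. Alternatives were DESeq2 1.42.0 size factors, library totals, upper quartile factors, TMM of the 2 libraries or without mitochondrial genes, 4 other count filters, a pseudocount of 5, calls whose interval excludes 1, and protein-coding genes only. Python 3.11.15, numpy 2.4.6, pandas 2.3.3, scipy 1.17.1 and matplotlib 3.10.9 were used. The values of some genes are not reported here.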

Additional observations from a re-analysis of the deposited data

Results flagged for a closer look

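RELN, which encodes the secreted matrix protein reelin, and ESPN, which encodes an actin-bundling protein, passed 1.5-fold in opposite directions in PVAT-CM and PPAT-CM, which share the control library. RELN had 781, 1449 and 552 reads (control-CM, PVAT-CM, PPAT-CM), a log2 ratio of 0.98 in PVAT-CM, and was 1.97-fold higher there (1.81 to 2.16) and 1.72-fold lower in PPAT-CM (1.54 to 1.92). ESPN had 114, 39 and 221 counts, a log2 ratio of -1.45 in PVAT-CM, and was 2.75-fold lower there (1.89 to 4.06) and 1.60-fold higher in PPAT-CM (1.27 to 2.02). With 1 library a medium the difference between the media was not tested. Over all kept genes 22 passed 1.5-fold in opposite directions in the 2 media, 1 of them, CD74, at or under the floor in the compared libraries. They include IFIT1, an interferon list member named after its value was seen, with 145, 243 and 104 reads. IFIT1 was 1.78-fold higher in PVAT-CM (1.45 to 2.21) and 1.69-fold lower in PPAT-CM (1.30 to 2.20). Of the 22, CENPP, SPHK1, MUC1, PPP1R18 and a gene without a symbol, named for this alone, had PVAT-CM intervals that included 1.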

How the results depend on the processing

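Of 192 counts recomputed under 12 alternatives, 157 stayed within 1.5 times of the reported count, and the other 35 are given here. Genes at least 1.5-fold higher and lower were 818 and 219 with library totals, 985 and 1325 with a mean of at least 10 counts, 161 and 126 with at least 200, and 5181 and 5957 with no filter. At 2-fold they were 100 and 31, 301 and 475, 13 and 11, and 3880 and 4475 in the same order, and 31 were higher with a mean of at least 50 over the 2 compared libraries. With library totals the higher members were 16 for ATF4, 15 for ER chaperones, 7 for amino acid transporters, 7 and 3 for large and small ribosomal subunits, 3 for tRNA synthetases, 4 for cholesterol and 4 for androgen targets, and the lower members 6 for mitochondrial mRNAs and 5 for matrix genes. DESeq2 size factors gave 2 tRNA synthetases. A mean of at least 200 left 5 higher interferon genes, and no filter gave 21, with 14 lower matrix genes. Androgen targets had 3 and cholesterol genes 2 higher members with a mean of at least 10 and with no filter. The medians of 17 of 60 lists changed sign under an alternative, all with a reported median within 0.12 of 0, among them glycolysis, at -0.10 with TMM and 0.03 with library totals. Of 362 named genes 23 changed side under another scaling or pseudocount, none of them past 1.09-fold as reported. No paired analysis was possible because each medium had 1 library. The spread between cultures was not measured, and depth limits genes under about 200 counts most.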
